A study of Mus musculus with 9 samples.

Results

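The circadian clock genes were read in midbrain tissue that included the substantia nigra. The group consists of 10 genes taken by symbol, Clock, Arntl, Per1, Per2, Cry1, Cry2, Nr1d1, Nr1d2, Dbp and Ciart, of 26602 genes with at least 1 count. All 10 passed the filter of 10 counts over the 9 libraries that left 18127 genes for testing. The tissue came from 4 DJ-1+/+ (wild-type) and 5 DJ-1-/- mice of 3 to 4 months of age, with 1 library per mouse. DJ-1-/- mice carried a targeted Park7 allele on a C57BL/6 background in all cells, so the deletion is not restricted to neurons. Animals of both genotypes came from heterozygous matings and shared cages, and none had received a treatment. The labels give neither sex nor hour of sacrifice.

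As background, the clock is a feedback loop of transcription that runs in most cells of the body, with a pacemaker in the suprachiasmatic nucleus of the hypothalamus. The proteins CLOCK and BMAL1 (the product of Arntl) bind E-boxes as a pair and activate the Per, Cry, Nr1d1, Nr1d2, Dbp and Ciart genes. PER and CRY proteins and CIART (also called CHRONO) repress that pair. REV-ERB proteins, from Nr1d1 and Nr1d2, repress Arntl, and DBP carries the rhythm to further genes through D-boxes. The mRNAs of Arntl and of Dbp and Nr1d1 peak at opposite times of day in many tissues, so a single sampling of a brain region reads both genotype and the hour of the day.

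The E-box sequences of these genes are shown because CLOCK and BMAL1 act through them. The 250 bases before each RefSeq transcript start (GRCm38.p6) were searched on both strands for CACGTG, the E-box, and CACGTT, a variant E-box whose other strand reads AACGTG. A promoter was matched for 9 of the 10 genes. For Cry2 and Nr1d1 the first bases after the start were not found in an annotated transcript of the gene. For the others they were. In the stretches printed, given 5′ to 3′ on the strand of the gene, capitals mark these matches, and no stretch touches an annotated exon. They lie at chr11:69098768-69098803 on the plus strand for Per1, inside a longer annotated transcript of the gene, and on the minus strand at chr10:85185094-85185148 for Cry1, chr3:95882324-95882359 and chr3:95882252-95882301 for Ciart, chr2:92434215-92434250 for Cry2 and chr11:98775385-98775420 for Nr1d1.
Per1: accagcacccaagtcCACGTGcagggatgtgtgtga
Cry1: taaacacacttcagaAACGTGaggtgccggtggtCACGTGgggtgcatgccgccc
Ciart, farther from the start: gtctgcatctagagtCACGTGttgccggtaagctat
Ciart, nearer to the start: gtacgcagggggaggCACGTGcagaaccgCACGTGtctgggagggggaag
Cry2: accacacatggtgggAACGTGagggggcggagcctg
Nr1d1: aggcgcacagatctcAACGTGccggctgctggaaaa

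The E-box stood in the promoters of 3 of the 9 genes, Per1, Cry1 and Ciart, and Ciart held 3 of them. Over all genes with a RefSeq promoter, 6.86% of 27025 held it. The variant E-box stood in Cry1, Cry2 and Nr1d1 and in 4.50% of all genes. The D-box TTANGTAA was found in none of the 9 and in 2.44% of all genes, and AGGTCA, the core of the element bound by REV-ERB and ROR proteins, stood in Clock, Per1 and Nr1d2 and in 15.8% of all genes. TGACG, the first letters of the cyclic AMP response element, stood in Per1, Cry1 and Cry2 and in 19.8% of all genes. Per1 and Cry1 each held 3 of the 5 motifs. These are letter matches and not evidence of binding.

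The libraries were checked before the clock genes were compared. The 4 DJ-1+/+ libraries held 841974 to 886085 UMI counts (counts of distinct molecules) and the 5 DJ-1-/- libraries held 967751 to 1098125, so every DJ-1-/- library was the deeper, and depth and genotype cannot be told apart by library. Park7, the DJ-1 gene, had 132, 105, 113 and 118 counts in DJ-1+/+ mice and 23, 29, 14, 19 and 19 in DJ-1-/- mice, and its log2 fold change was -2.71 ± 0.15 (SE, adjusted p = 7.39e-08, edgeR quasi-likelihood test). The Y-linked gene Ddx3y stood at 113 to 152 counts in DJ-1+/+ mice 1 and 4 and DJ-1-/- mouse 5 and at no more than 4 in the other 6, and Xist showed the opposite. Markers of midbrain dopaminergic neurons were present throughout, with the 8 genes of that list summing to 456 to 898 cpm (counts scaled to a library of 1000000) in DJ-1+/+ and 707 to 947 cpm in DJ-1-/- mice. All 8 were higher in the DJ-1-/- group (median 0.34 on the log2 scale). Th, Slc6a3 and Pitx3 (0 to 6 counts) had unadjusted p-values under 0.05 by edgeR, as 2.83% of all genes tested did in either direction. By the exact permutation test or by DESeq2, 0 of the 8 did. Markers of other regions set single libraries apart. The 6 cerebellar markers summed to 847 cpm in DJ-1+/+ mouse 1 and to 157 to 256 cpm elsewhere, and Gabra6 gave 102 counts in that mouse and 0 to 2 elsewhere. All 6 were lower in the DJ-1-/- group (median -1.84 on the log2 scale). Gabra6, Cbln3, Pcp2 and Car8 had unadjusted p-values under 0.05 by edgeR, against 0 of the 6 by the exact permutation test and 1 by DESeq2. The 6 choroid plexus markers (Ttr, Folr1, Kl, Clic6, Kcnj13, Aqp1) summed to 596 cpm in DJ-1+/+ mouse 4, 277 in mouse 1 and 43.4 to 164 elsewhere. These 6 were also all lower in the DJ-1-/- group (median -1.87 on the log2 scale). All 6 had an unadjusted p under 0.05 by edgeR, 3 by DESeq2 and 0 by the exact permutation test. In bulk tissue, fewer cells of a type and less RNA per cell cannot be told apart. Whether these marker differences between the genotypes bear on the clock gene comparisons was not tested.

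The pacemaker itself was looked for with 7 markers of suprachiasmatic neurons. They summed to 302 cpm in DJ-1+/+ mouse 2, to 235 cpm in DJ-1-/- mouse 3 and to 93.7 to 146 cpm in the other 7 libraries. Avp, the vasopressin gene, gave 135 counts in DJ-1+/+ mouse 2 and 107 in DJ-1-/- mouse 3 against 0 to 26 elsewhere, and Six6, a transcription factor gene of the nucleus, gave 9 and 6 counts against 0 to 3. Nms gave 6 and 5 counts in these mice against 0 to 3 elsewhere. Prok2, which encodes an output signal of the nucleus, did not pass 2 counts in any library. Vip did not set DJ-1+/+ mouse 2 and DJ-1-/- mouse 3 apart, with 12 and 11 counts against 3 to 36 elsewhere. Neither did Grp, with 23 and 26 against 3 to 35, nor Lhx1, with 81 and 71 against 49 to 95. Lhx1 had the most counts of the list in each of the other 7 libraries. Avp is also made in other hypothalamic nuclei. The part of this tissue in the clock gene values was not tested directly, and counts without both libraries are given with the results.

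The 10 genes were all expressed at low to moderate levels. Because the kit counts the 3′ end of each molecule once, levels of different genes were compared in cpm without a correction for length. Mean levels over the 9 mice, with SD, were 132 ± 10.8 cpm for Nr1d2, 129 ± 8.78 for Clock, 103 ± 17.1 for Dbp, 82.5 ± 8.88 for Cry2, 59.7 ± 7.25 for Nr1d1, 48.1 ± 10.1 for Per1, 45.3 ± 7.59 for Cry1, 41.4 ± 14.1 for Arntl, 33.2 ± 9.51 for Per2 and 25.3 ± 7.51 for Ciart. Within mice, Cry2 stood above Nr1d1 in 9 of 9, by 22.9 ± 7.42 cpm (SD). The other neighbours in this order exchanged places in some mice. Clock stood above Dbp, Dbp above Cry2 and Nr1d1 above Per1 in 7 of 9 each, while Per1 over Cry1 and Cry1 over Arntl held in 6 of 9, Arntl over Per2 and Per2 over Ciart in 5 of 9, and Nr1d2 over Clock in only 3 of 9. Clock stood about as high as Nr1d2, while its partner Arntl was counted far less often. The lowest value of a member was 14 counts, above the 3 counts (2.73 to 3.56 cpm) taken as the limit of detection.

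None of the 10 clock genes differed between genotypes after adjustment over all genes tested. The smallest adjusted p was 0.99997 (edgeR quasi-likelihood test with Benjamini-Hochberg adjustment), where 1 of the 18127 genes (0.00552%), Park7, passed 0.05. In DJ-1-/- mice 4 of the 10 were higher and 6 were lower, and the median of their log2 fold changes was -0.020 against 0.0079 over all genes tested. At an unadjusted p under 0.05 there was 1 gene, Per1, where 513 genes (2.83%) passed in the whole table, 285 higher and 228 lower. The cpm ranges of the genotypes overlapped for all 10, against 1.25% of all genes whose ranges did not. By DESeq2, 0 of the 10 had an unadjusted p under 0.05, where 1.30% of all genes did.

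**Figure D1:**
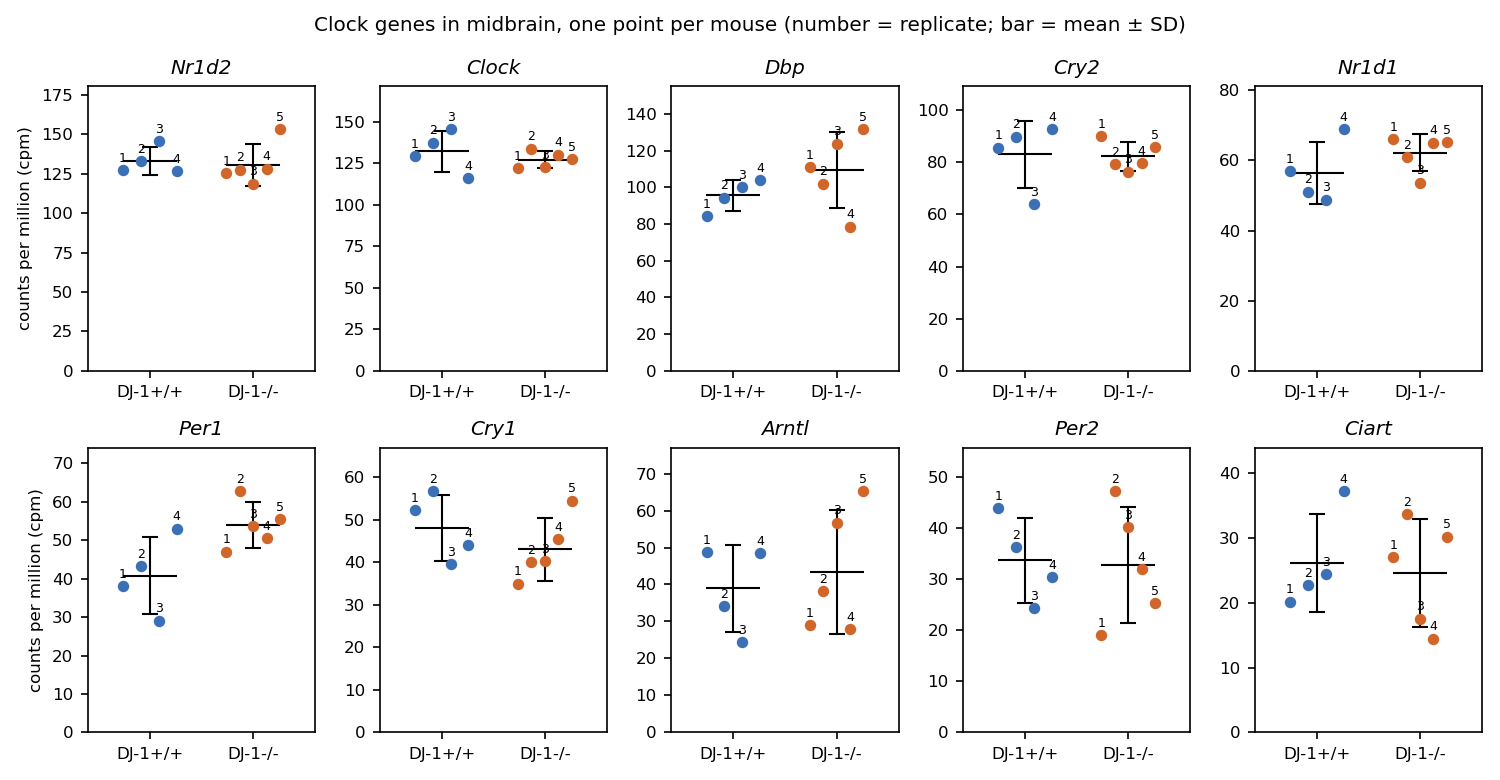
Level in cpm (y axis, from 0) of the 10 clock genes by genotype, with 1 point per mouse, its replicate number above it, and a bar at the mean ± SD of the 4 DJ-1+/+ and 5 DJ-1-/- mice. The points of the genotypes overlap in every panel, and in the Per1 panel 3 of the 4 DJ-1+/+ mice sit below all 5 DJ-1-/- mice.

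Per1 and Per2 encode the PERIOD proteins, the negative arm of the loop, and Per1 is also switched on quickly by light, neuronal activity and glucocorticoids. Per1 stood at 38.0, 43.2, 29.1 and 53.0 cpm in DJ-1+/+ mice 1 to 4 and at 47.0, 62.8, 53.6, 50.6 and 55.5 cpm in DJ-1-/- mice 1 to 5. DJ-1+/+ mouse 4 alone reached into the range of the DJ-1-/- mice, and the other 3 lay below all of them. The means were 40.8 ± 10.01 (SD, n = 4) and 53.9 ± 5.92 cpm (SD, n = 5), a log2 fold change of 0.40 ± 0.17 (SE, 95% interval 0.04 to 0.76, unadjusted p = 0.0311, adjusted p = 0.99997, edgeR). An exact two-sided permutation test of the cpm gave p = 0.0476 before adjustment and 1 after it, where 3.67% of all genes had an unadjusted p under 0.05 by that test. The direction held in all 21 alternative settings, with a log2 fold change of 0.27 to 0.58, but the unadjusted p ran from 0.00598 to 0.123 and was under 0.05 in 14 of them. Without DJ-1+/+ mouse 3, the lowest library, the log2 fold change was 0.27 (unadjusted p = 0.123, edgeR), without DJ-1+/+ mouse 1 it was 0.37 (unadjusted p = 0.0684), without DJ-1-/- mouse 2 it was 0.34 (unadjusted p = 0.0842) and without DJ-1-/- mouse 5 it was 0.38 (unadjusted p = 0.0526). Without DJ-1+/+ mouse 2 and DJ-1-/- mouse 3, the libraries with high Avp, it was 0.43 (unadjusted p = 0.0606, edgeR). Without DJ-1+/+ mice 1 and 4 it was 0.58 (unadjusted p = 0.0128, edgeR). That setting leaves out the DJ-1+/+ mouse within the DJ-1-/- range. It also keeps DJ-1-/- mouse 5 as the sole library with high Ddx3y counts.

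Per2 did not share that difference. It stood at 43.9, 36.4, 24.4 and 30.5 cpm in DJ-1+/+ mice and at 19.0, 47.4, 40.2, 32.0 and 25.3 cpm in DJ-1-/- mice. The lowest and the highest value of all 9 mice were both in DJ-1-/- mice. The means were 33.8 ± 8.33 and 32.8 ± 11.3 cpm, with a log2 fold change of -0.039 ± 0.25 (95% interval -0.57 to 0.49). Per3, the third PERIOD gene, lies 89.2 kb from Park7 on chromosome 4. It stood at 44.2 to 71.6 cpm in DJ-1+/+ and at 55.1 to 72.3 cpm in DJ-1-/- mice, and its log2 fold change was 0.15 ± 0.15 (unadjusted p = 0.329, edgeR).

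Since Per1 responds to neuronal activity and to glucocorticoids, lists of genes induced by each were set beside it. Among 12 immediate early genes 8 were higher and 4 were lower in DJ-1-/- mice, their log2 fold changes had a median of 0.15, and 0 had an unadjusted p under 0.05, the smallest being 0.125 for Junb (edgeR). Their summed level was 253 to 421 cpm in DJ-1+/+ and 320 to 488 cpm in DJ-1-/- mice. Of 10 glucocorticoid-induced genes, 5 were higher and 5 lower, with a median of 0.028 and a smallest p of 0.372 for Sgk1, and their summed level was 721 to 822 cpm and 741 to 797 cpm. By the exact permutation test and by DESeq2, 0 genes of either list had an unadjusted p under 0.05. Their part in the Per1 values was not tested.

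The activators were unlike each other in how evenly they were expressed. Clock stood at 129, 138, 145 and 116 cpm in DJ-1+/+ and at 122, 134, 123, 130 and 128 cpm in DJ-1-/- mice, a range of 1.25-fold over all 9. The means were 132 ± 12.5 and 127 ± 4.98 cpm and the log2 fold change was -0.052 ± 0.087 (95% interval -0.24 to 0.13). Arntl stood at 48.7, 34.1, 24.4 and 48.5 cpm in DJ-1+/+ and at 29.0, 38.2, 56.7, 27.9 and 65.3 cpm in DJ-1-/- mice, a range of 2.67-fold. High and low mice occurred in both genotypes, with DJ-1-/- mice 5 and 3 highest and DJ-1+/+ mouse 3 lowest. The means were 38.9 ± 11.8 and 43.4 ± 16.8 cpm and the log2 fold change was 0.16 ± 0.27 (95% interval -0.42 to 0.73), which leaves room for a change of 1.66-fold upward or to 0.749 of the wild-type level. The 3 libraries with Ddx3y counts were among the 4 with the highest Arntl, and DJ-1-/- mouse 3 was the fourth. Sex is not given in the labels. With Xist as a covariate the log2 fold change of Arntl was 0.44 (unadjusted p = 0.0636, edgeR), and in the 6 libraries with Xist counts it was 0.37 (unadjusted p = 0.235, edgeR). Without DJ-1+/+ mice 1 and 4, the wild-type libraries with Ddx3y counts, it was 0.57 (unadjusted p = 0.114, edgeR). That setting keeps DJ-1-/- mouse 5, with Ddx3y counts and the highest Arntl, so the genotypes are then unlike in this respect. With single mice left out the log2 fold change of Arntl ran from -0.045, without DJ-1-/- mouse 5, to 0.28, without DJ-1+/+ mouse 4.

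The cryptochromes, the partners of PER proteins in the repressor complex, showed no difference beyond the spread between mice. Cry1 stood at 52.3, 56.8, 39.6 and 44.0 cpm in DJ-1+/+ and at 35.0, 40.1, 40.2, 45.5 and 54.6 cpm in DJ-1-/- mice. The means were 48.2 ± 7.81 and 43.1 ± 7.41 cpm, and its log2 fold change of -0.16 ± 0.17 (95% interval -0.52 to 0.20) was the lowest of the 10. Cry2 stood at 85.5, 89.8, 64.0 and 92.5 cpm in DJ-1+/+ and at 90.1, 79.2, 76.3, 79.6 and 85.8 cpm in DJ-1-/- mice. DJ-1+/+ mouse 3 was the low library here, as it was for Per1 and Arntl. The means were 83.0 ± 13.0 and 82.2 ± 5.59 cpm, with a log2 fold change of -0.014 ± 0.11 (95% interval -0.26 to 0.23).

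The REV-ERB genes were among the steadiest of the group. Nr1d1 stood at 57.0, 51.1, 48.9 and 68.8 cpm in DJ-1+/+ and at 66.1, 61.0, 53.6, 65.1 and 65.3 cpm in DJ-1-/- mice. DJ-1+/+ mouse 4 was the highest of all 9 and the other 3 wild-type mice fell into the lower part of the range. The means were 56.5 ± 8.94 and 62.2 ± 5.18 cpm and the log2 fold change was 0.14 ± 0.14 (95% interval -0.15 to 0.43). Nr1d2 stood at 127, 133, 145 and 126.4 cpm in DJ-1+/+ and at 125, 127, 119, 128 and 153 cpm in DJ-1-/- mice, with means of 133 ± 8.81 and 130 ± 13.1 cpm. DJ-1-/- mouse 5 stood apart from the other 4 of its genotype. The log2 fold change was -0.026 ± 0.088 (95% interval -0.21 to 0.16).

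Dbp and Ciart are outputs of the loop, Dbp a transcription factor and Ciart a repressor of CLOCK and BMAL1. Dbp stood at 84.3, 94.3, 100.1 and 104 cpm in DJ-1+/+ and at 111, 102, 124, 78.5 and 132 cpm in DJ-1-/- mice. DJ-1-/- mice held the lowest value as well as the 3 highest. The means were 95.6 ± 8.49 and 109 ± 20.7 cpm and the log2 fold change was 0.19 ± 0.13 (95% interval -0.082 to 0.47, unadjusted p = 0.156, edgeR). Without DJ-1-/- mouse 4 it was 0.28 (unadjusted p = 0.018, edgeR). That mouse held the lowest value, so leaving it out could only raise the DJ-1-/- mean. Over the 21 alternative settings the log2 fold change of Dbp was 0.094 to 0.28, and its unadjusted p was under 0.05 in 1 of them. Ciart stood at 20.2, 22.7, 24.4 and 37.2 cpm in DJ-1+/+ and at 27.0, 33.7, 17.5, 14.5 and 30.2 cpm in DJ-1-/- mice, with means of 26.1 ± 7.60 and 24.6 ± 8.26 cpm. Its log2 fold change of -0.082 ± 0.27 had a 95% interval of -0.66 to 0.49, about as wide as that of Arntl. Dbp overlaps Sphk2, Nr1d1 overlaps Thra, and Arntl and Cry2 overlap non-coding genes, in each case with exons on the opposite strand, and whether strand was used in counting is not given in the sources used here.

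**Figure D2:**
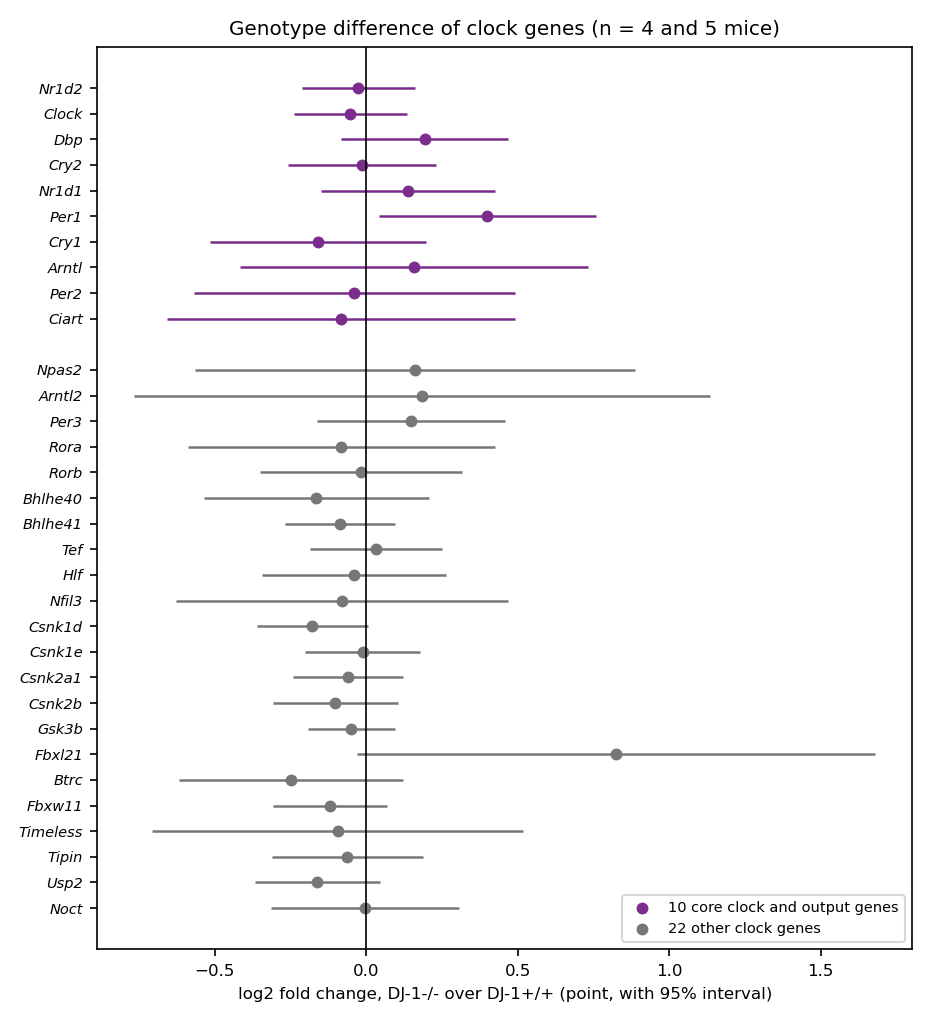
Log2 fold change of DJ-1-/- over DJ-1+/+ (x axis) for the 10 clock genes, in order of level, and for 22 other clock genes, with 95% intervals from the edgeR fit of 4 and 5 mice. The interval of Per1, 0.04 to 0.76, is the one that leaves out 0 before adjustment, and the 22 others all include it.

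The rest of the clock machinery was read from a list of 22 further genes, all of which passed the filter. In DJ-1-/- mice 5 were higher and 17 were lower, and the median of their log2 fold changes was -0.061. Over all 18127 genes tested 9412 were higher and 8715 lower, with a median of 0.0079. Of the 22, 0 had an unadjusted p under 0.05 by edgeR or by DESeq2, where 2.83% and 1.30% of all genes did. By the exact permutation test 1 did, Csnk1d, where 3.67% of all genes passed. Csnk1d, a casein kinase that marks PER proteins for breakdown, stood at 118 to 131 cpm in DJ-1+/+ and at 98.0 to 121 cpm in DJ-1-/- mice. Its log2 fold change was -0.18 ± 0.086 (unadjusted p = 0.0558, edgeR) and an exact p of 0.0317 (1 after adjustment). The kinases Csnk1e (-0.012), Csnk2a1 (-0.060), Csnk2b (-0.10) and Gsk3b (-0.048) had log2 fold changes nearer to 0. Among the F-box genes that direct the breakdown of clock proteins, Fbxl21 had the highest log2 fold change of the list, 0.82 ± 0.40 (unadjusted p = 0.0575, edgeR), and Btrc the lowest, -0.25 ± 0.17. Fbxl21 rested on 2, 10, 5 and 5 counts in DJ-1+/+ and 12, 8, 11, 10 and 16 counts in DJ-1-/- mice, so that 1 of the DJ-1+/+ libraries was below the limit of 3 counts. Its log2 fold change was 1.26 without DJ-1+/+ mouse 2 (unadjusted p = 0.0106, edgeR), 0.39 without DJ-1+/+ mice 1 and 4 (unadjusted p = 0.393, edgeR) and 0.24 in the 6 libraries with Xist counts (unadjusted p = 0.612, edgeR). Fbxw11 had -0.12.

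Of the relatives of the core genes, Npas2, which can stand in for Clock, had a log2 fold change of 0.16 ± 0.34 and Arntl2 of 0.19 ± 0.45. Arntl2 was near the limit of detection, with means of 5.18 and 5.89 cpm. The activators of Arntl transcription gave -0.082 for Rora and -0.017 for Rorb. The E-box repressors Bhlhe40 and Bhlhe41 gave -0.16 and -0.087. Of the genes whose products bind D-boxes, Tef gave 0.032, Hlf -0.040 and their antagonist Nfil3 -0.080. Timeless gave -0.094, Tipin -0.062, the deubiquitinase gene Usp2 -0.16 and the deadenylase gene Noct -0.0041.

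The spread between mice of the same genotype differed among the 10 genes. It was expressed as the chi-square of the counts within genotypes per degree of freedom, which is about 1 where counting error is the sole source. Arntl had 5.05, Per2 3.06, Dbp 2.48 and Ciart 2.41. Per1 (1.30), Cry1 (1.21), Nr1d2 (0.981), Cry2 (0.969), Nr1d1 (0.774) and Clock (0.555) lay near counting error. Among the 8301 genes with 217 to 1122 counts over the 9 libraries, the median was 1.07 and the quartiles were 0.677 and 1.74. Of those genes, 95.9% lay below Arntl, 90.7% below Per2, 86.8% below Dbp and 86.1% below Ciart, and 17.1% below Clock. This places the 4 genes in the upper part of all genes of like counts, as a description without a test. The measure rises with the count for the same relative variation, and the range of counts was not divided further.

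**Figure D3:**
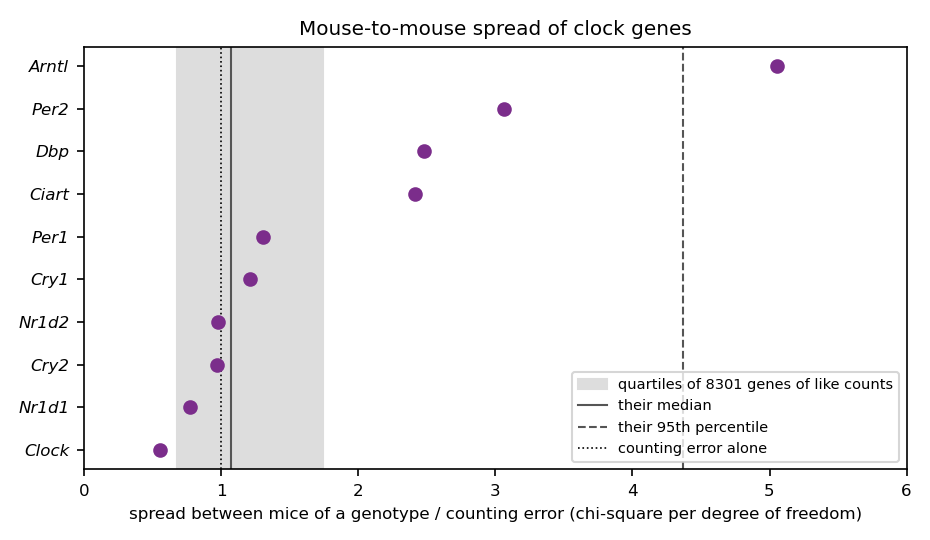
Spread between mice of the same genotype relative to counting error (x axis, chi-square per degree of freedom) for the 10 clock genes. The grey band (from the lower to the upper quartile), the solid line and the dashed line give the spread, median (1.07) and 95th percentile (4.37) of 8301 genes of like counts, and Arntl at 5.05 lies beyond the dashed line.

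Which mice were high differed from gene to gene. Dbp, Arntl and Nr1d2 all had their highest value in DJ-1-/- mouse 5, but Per2 and Ciart did not, with Per2 highest in DJ-1-/- mouse 2 and Ciart in DJ-1+/+ mouse 4. DJ-1-/- mouse 4 had the lowest Dbp and Ciart and the second lowest Arntl. The ratio of Arntl to Dbp counts, genes that peak at opposite times of day in many tissues, was 0.244 to 0.577 in DJ-1+/+ and 0.261 to 0.496 in DJ-1-/- mice. DJ-1+/+ mice 3 and 1 held the lowest and the highest ratio, and the values of the DJ-1-/- mice lay between them.

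Across the 9 mice, 8 pairs of clock genes were correlated on the log2(cpm + 1) scale, chosen from textbook phase. None passed 0.05, with Benjamini-Hochberg adjusted p-values of 0.755 to 0.808 for Pearson's r and 0.529 to 0.678 for Spearman's rho (exact permutation tests). The strongest was Arntl with Dbp, at r = 0.54 (exact permutation p = 0.134) and rho = 0.57 (exact permutation p = 0.121). Without the 2 mice farthest from the median of Arntl, r was 0.42, and it was 0.54 within genotypes (exact permutation p = 0.174). Dbp with Ciart gave r = 0.45 and rho = 0.48, but r = -0.032 without the 2 mice farthest from the median of Dbp. For the other 6 pairs r lay between -0.31, for Dbp with Per2, and 0.34, for Arntl with Per2. Nr1d1 and Nr1d2 gave r = -0.12, and Per1 and Per2 gave 0.27.

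**Figure D4:**
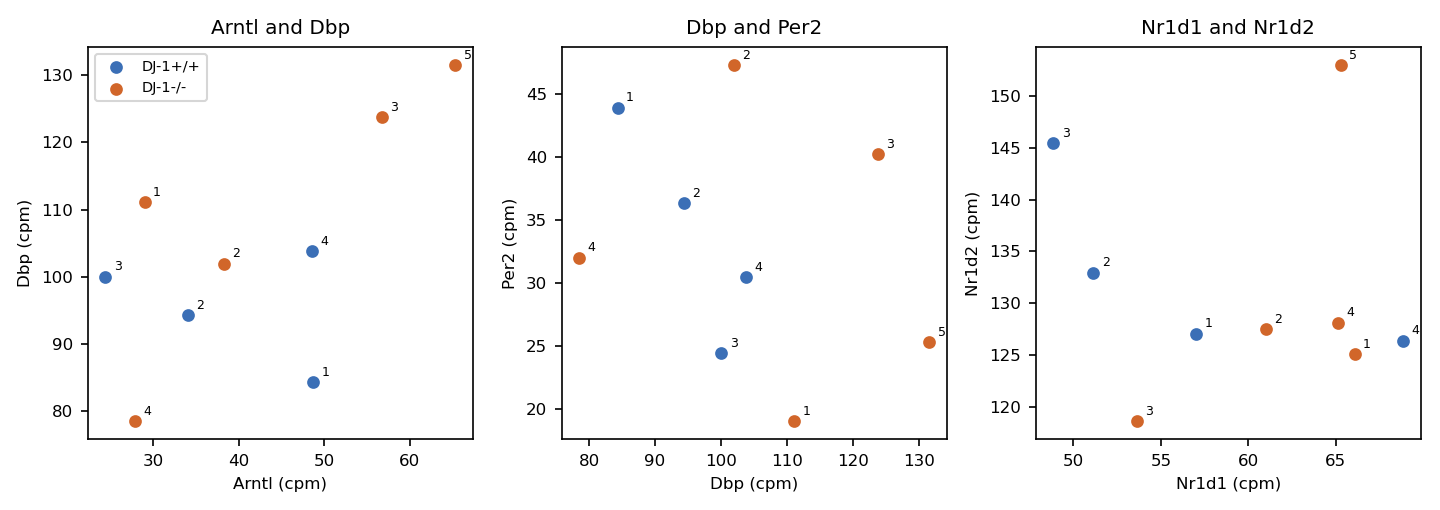
Levels in cpm of 3 pairs of clock genes, with 1 point per mouse labelled by its replicate number and coloured by genotype. Arntl and Dbp are both highest in DJ-1-/- mouse 5 (r = 0.54 over 9 mice on the log2 scale), Dbp and Per2 give r = -0.31 and Nr1d1 and Nr1d2 give r = -0.12, and no axis starts at 0.

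Of all 45 pairs among the 10 genes, 26 had a positive and 19 a negative r, with a median of 0.17. The range was from -0.72 for Clock with Nr1d1 to 0.65 for Per1 with Nr1d1, and Clock with Cry2 (-0.65) and Cry2 with Nr1d1 (0.61) were the other 2 beyond 0.6 in size. Clock, Cry2 and Nr1d1 had a spread no larger than counting error, and all 10 values of a mouse share 1 library total, so these are descriptions of 9 libraries.

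Among 10769 other genes with a mean of at least 20 counts, those most like Dbp over the 9 libraries were not clock genes. They were Afap1 (r = 0.94), Lin54 (0.91), Sirt5 (0.91), Eif2b1 (0.90) and Homez (0.90), and those most opposed were Clstn3 (-0.97), Sri (-0.94), Zfp687 (-0.93), Ppa1 (-0.92) and Ints4 (-0.92). Among clock genes Arntl came highest, at rank 948, and Csnk1e lowest, at rank 10684 (-0.79). For Arntl the most like were Jph4 (0.95), Qrich1 (0.94), Eftud2 (0.93), Sorbs2 (0.93) and Smarcad1 (0.92), and the most opposed Utrn (-0.95), Etv4 (-0.94), Sst (-0.93), Chst12 (-0.93) and Cd99l2 (-0.92). Among clock genes Rora, an activator of Arntl, came highest in that order, at rank 208 (0.73), followed by Bhlhe40 at rank 337 (0.68). Tipin came lowest, at rank 10528 (-0.72). Rora was high in DJ-1+/+ mouse 4 and DJ-1-/- mouse 5, both high in thalamus markers, as given below. With 9 libraries and 10769 genes, values of this size are descriptions.

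Rora, Rorb and Hlf set the same pair of libraries apart, 1 of each genotype. Rora stood at 355 cpm in DJ-1+/+ mouse 4 and 339 cpm in DJ-1-/- mouse 5, against 158 to 205 cpm in the other 7. Rorb stood at 202 and 200 cpm there against 127 to 139 cpm, and Hlf at 210 and 225 cpm against 130 to 183 cpm. Rora and Rorb are strongly expressed in the thalamus, which borders the midbrain. A list of 7 genes known from the thalamus (Prkcd, Tnnt1, Ramp3, Tcf7l2, Lef1, Synpo2, Plekhg1), chosen after the Rora values were seen, summed to 1224 cpm in DJ-1+/+ mouse 4 and 1145 cpm in DJ-1-/- mouse 5 and to 234 to 566 cpm in the other 7. Each of the 7 had its highest counts in these 2 libraries, such as 286 and 330 for Tcf7l2 against 75 to 161. Both libraries also carried Ddx3y counts, while DJ-1+/+ mouse 1, which did so too, had 267 cpm for the list. The part of this tissue in the clock gene values was not tested. Without both libraries, Per1 had a log2 fold change of 0.53 (unadjusted p = 0.0109, edgeR) and Arntl of 0.078. The Per1 ranges no longer overlapped, where 5.21% of all genes did not overlap. DJ-1+/+ mouse 4 alone of its genotype reached the DJ-1-/- range of Per1, so leaving it out fixed that outcome in advance. Without that mouse alone the log2 fold change of Per1 was already 0.55 (unadjusted p = 0.00598, edgeR).

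**Figure D5:**
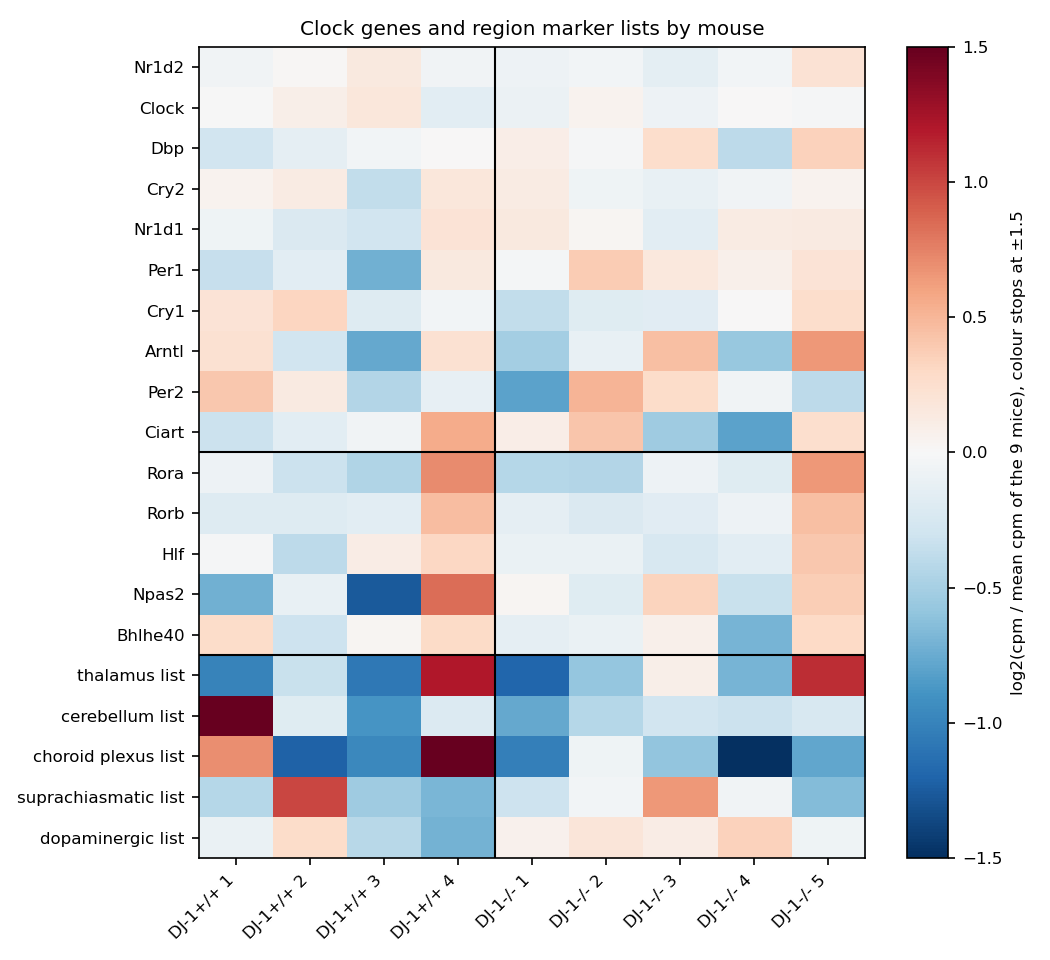
Level of each gene or marker list in each of the 9 mice relative to its mean over the mice (colour, log2, stopping at ±1.5), for the 10 clock genes, 5 other clock genes and 5 lists of region or cell type markers. DJ-1+/+ mouse 4 and DJ-1-/- mouse 5 share high Rora, Rorb and Hlf with a high thalamus list (1224 and 1145 cpm), and the lines separate the kinds of rows and the genotypes.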

How the data were processed

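Midbrain tissue including the substantia nigra of 9 mice was analysed, 1 library per mouse. The authors deposited whole-number UMI counts per Ensembl gene, without normalization, from QuantSeq 3′ FWD libraries. The submitters' processing notes name fastp 0.20.0, STAR 2.7.3a, featureCounts 2.0.0, UMI-tools 1.0.0 and GRCm38. Settings are not given in the sources used here. Of 26602 genes, 26576 were found in GENCODE M21 (GRCm38), which gave symbols and positions. The most abundant gene took 0.107% to 0.142% of a library, so levels of abundant genes may be compressed, which was not tested.

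A gene not listed in a library was given 0 counts. Genes with at least 10 counts over 9 libraries (18127) were fitted with edgeR 4.0.16 (glmQLFit and glmQLFTest, TMM, genotype alone) in R 4.3.3, with Benjamini-Hochberg adjustment over all of them. Standard errors and 95% intervals were derived from the p-value with a t distribution. Exact two-sided permutation tests of cpm used all splits of 9 mice into 4 and 5 (scipy 1.17.1), where the smallest possible p is 0.0159. DESeq2 1.42.0, other normalizations and filters, Xist in the model, a block for replicate number, thinned counts (841974 per library) and omitted libraries were alternatives. Same-genotype pairs of libraries differed by a chi-square per degree of freedom of 1.07 to 2.27 (16 pairs), so none was counted as a copied file. Counting error alone gives about 1, so the lowest values cannot exclude a sample that was sequenced again. Promoters are from RefSeq (GRCm38.p6).

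Named are the 10 genes, 22 further clock genes, Park7, Xist and Ddx3y, the 5 genes most and least like Dbp and Arntl, and genes of the marker lists with an unadjusted p under 0.05. A few genes of the lists are not reported here and were left out of their lists. Any other gene was named with its values in view. These members and lists were chosen with earlier results of these data known. Intervals and limits of detection cover counting error and the spread between these mice only.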

Additional observations from a re-analysis of the deposited data

Results flagged for a closer look

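Dixon's test at 95% was run on 50 groups of 4 or 5 mice. These were the 10 clock genes, Park7, the gene lists and the marker lists, each by genotype. They include the thalamus list, chosen after the Rora values were seen. In 4 groups a mouse lay far from the others, where chance alone gives about 2.5. Nr1d2 was highest in DJ-1-/- mouse 5, at 153 cpm against 119 to 128 cpm in the other 4. The 22 further clock genes summed to 2486 cpm in DJ-1+/+ mouse 4, the library with the highest Rora, against 2119 to 2176 cpm in the other 3. The suprachiasmatic markers summed to 302 cpm in DJ-1+/+ mouse 2, against 93.7 to 112 cpm in the other 3. The cerebellar markers summed to 847 cpm in DJ-1+/+ mouse 1, against 157 to 256 cpm. No cause was tested.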

How the results depend on the processing

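The count of clock genes with an adjusted p under 0.05 was 0 in all 21 alternatives and the log2 fold change of Park7 lay between -2.82 and -2.57. With an unadjusted p under 0.05, the count of the 10 was 0 by DESeq2, 0 with the replicate block and 0 without DJ-1+/+ 2 and DJ-1-/- 3, and ran from 0 to 2 with single mice left out. The count of the 22 others was 1 with RLE size factors, 1 with at least 50 counts, 2 with thinned counts, 1 without DJ-1+/+ 1 and 4, 2 without DJ-1+/+ 2 and DJ-1-/- 3, and 0 to 2 with single mice left out (2 without DJ-1+/+ 2 or 4, 1 without DJ-1+/+ 1 or DJ-1-/- 2 or 4). Genes of the 10 without overlap numbered 3 (Clock, Per1, Nr1d1) without DJ-1+/+ 1 and 4, where 7.98% of all genes did not overlap, 1 without DJ-1+/+ 4 and DJ-1-/- 5, and 0 to 1 with single mice left out (Per1 without DJ-1+/+ 4, where 3.11% did not). The count of correlated pairs was 0 in its 18 alternatives. The 2 pairs left out last were chosen after seeing the data.

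Replicate numbers did not pair the mice: same-numbered mice had correlations of 0.29, 0.056, -0.12 and -0.20, and nothing names a shared litter. With the replicate block Per1 had 0.39 (unadjusted p = 0.0502, edgeR), and the sign turned for Arntl (-0.051), Per2 (0.016) and Tef (-0.0011).

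Signs of small log2 fold changes also turned elsewhere, all with unadjusted p-values above 0.05 (edgeR). With the Xist covariate these were Cry2 0.044, Ciart 0.021, Rora 0.21, Rorb 0.14, Bhlhe40 0.00022, Tef -0.0050, Hlf 0.10, Nfil3 0.018, Csnk1e 0.011 and Noct 0.037. In the 6 libraries with Xist they were Per2 0.19, Cry2 0.076, Arntl2 -0.15, Rora 0.11, Rorb 0.025, Tef -0.16 and Csnk1e 0.070. Without DJ-1+/+ 1 and 4 they were Per2 0.11, Cry2 0.097, Ciart 0.072, Rora 0.35, Rorb 0.17, Bhlhe40 0.057, Tef -0.13, Hlf 0.11, Nfil3 0.055, Csnk1e 0.060 and Usp2 0.0068. Without DJ-1+/+ 4 and DJ-1-/- 5 they were Cry2 0.018, Ciart 0.048 and Rorb 0.024, and without DJ-1+/+ 2 and DJ-1-/- 3 they were Arntl -0.017, Cry2 0.046 and Nr1d2 0.0015. Thinned counts gave Cry2 0.046 and Noct 0.0033, and no filter gave Noct 0.0055.

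With single mice left out, signs turned within -0.045 to 0.28 for Arntl, -0.21 to 0.11 for Per2, -0.12 to 0.042 for Cry2, -0.097 to 0.017 for Nr1d2, -0.22 to 0.14 for Ciart, -0.085 to 0.68 for Npas2, -0.043 to 0.48 for Arntl2, -0.33 to 0.24 for Rora, -0.17 to 0.17 for Rorb, -0.036 to 0.13 for Tef, -0.18 to 0.070 for Hlf, -0.19 to 0.073 for Nfil3, -0.060 to 0.031 for Csnk1e and -0.078 to 0.088 for Noct. The cause was not tested. Ciart, with 14 to 37 counts, and the genes of lower counts are the ones whose precision depth limits most.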

Other observations

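The 5 astrocyte markers (Aqp4, Gja1, Slc1a2, Slc1a3, Aldoc) summed to 1193 to 1299 cpm in DJ-1+/+ and 1166 to 1273 cpm in DJ-1-/- mice, and 4 microglial markers (Cx3cr1, P2ry12, Csf1r, Tmem119) to 316 to 337 cpm and 308 to 328 cpm. The 4 oligodendrocyte markers (Mbp, Mog, Mobp, Mag) summed to 1124 to 1503 cpm and 1229 to 1447 cpm, and the 4 endothelial markers to 313 to 403 cpm and 311 to 354 cpm. In these 4 lists 0 genes had an unadjusted p under 0.05 by edgeR. By the exact permutation test 1 astrocyte marker did, where 3.67% of all genes passed. The 4 haemoglobin genes summed to 423 to 647 cpm and 375 to 509 cpm, and Hba-a2, with 89, 97, 14 and 11 counts in DJ-1+/+ and 15, 16, 5, 10 and 64 in DJ-1-/- mice, had an unadjusted p of 0.0316 (edgeR). In the promoter of Per3, the 250 bases before the start held 2 matches to the D-box, which the promoters of the 9 matched clock genes did not hold.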
